A study of Mus musculus with 8 samples.

Results

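Nicotinamide nucleotide transhydrogenase (Nnt) and 9 further genes of the redox defence of mitochondria were measured in the liver of mice of the strains NZO and B6. All spots of the arrays, controls aside, were searched for the gene names Nnt, Idh2, Glud1, Txn2, Txnrd2, Prdx3, Prdx5, Gpx1, Gpx4 and Sod2, which are 10 of the 34836 gene names on the array and gave 16 of its 55681 probes, with 3 probes for Nnt and for Txn2, 2 each for Glud1 and Prdx5, and 1 for each of the other 6 genes. The obese group were male NZO/HiBomDife mice and the lean group male C57BL/6 mice, with 4 arrays per strain, and both groups were 6 weeks old and ate a Research Diets diet with 45% fat. The strains are inbred lines that differ across the genome, and the labels give C57BL/6 without a substrain. Cy3-labelled RNA was hybridised to 1-colour Agilent arrays, and the values are log2 of the background-subtracted signal minus the 75th percentile of the same array, so that a value of 0 is the level of that percentile. A probe counted as detected when Agilent's software called it well above background. It was tested when it was detected on all 4 arrays of at least 1 strain, which was the case for 27643 probes, among them 15 of the 16 probes of the redox genes. A difference is given as NZO minus B6, and changed means an adjusted p of at most 0.05 in limma with a log2 fold change of at least 0.7 in either direction. The 5 hepatocyte markers Alb, Ttr, Apoa1, Cps1 and Tat were detected on all 8 arrays and none was changed.

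NNT lies in the inner mitochondrial membrane and uses the proton gradient to pass hydride from NADH to NADP+, which supplies the matrix with NADPH. The isocitrate dehydrogenase IDH2 and the glutamate dehydrogenase GLUD1 are other matrix enzymes that can form NADPH. Thioredoxin reductase 2 (Txnrd2) spends it to reduce thioredoxin 2 (Txn2), which in turn reduces the peroxiredoxins Prdx3 and Prdx5, while the glutathione peroxidases Gpx1 and Gpx4 draw on glutathione that is also regenerated with NADPH. The superoxide dismutase SOD2 is the source of much of the hydrogen peroxide these enzymes remove. Mice of the substrain C57BL/6J are known for a deletion of inner exons of Nnt, whereas C57BL/6N mice carry the intact gene. It was not determined whether any of the Nnt probes lies in the deleted part, and the substrain of the B6 mice was not derived from them.

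The 3 Nnt probes lie on chromosome 13, on the minus strand, so that the lowest position is the most 3′ one. Positions are those of mm9, as in the files, and no annotation of this build was used here to assign exons. The last 30 bases of each 60-base probe are shown because the Nnt values are given probe by probe along the gene. Capitals mark the letters AATAAA, the common polyadenylation signal, which 10.1% of all 55681 probes hold (13.5% with the reverse complement TTTATT included).
Nnt A_55_P2144280: tcctactagcatccaatgataaaagccaag
Nnt A_55_P2144285: atctgagtAATAAAtgagttcataaaagtg
Nnt A_55_P2008956: attttcatatttggtgatgatattaaataa
The first probe occupies chr13:120123318-120123377 and is the most 3′ of them. The next, at chr13:120124335-120124394, starts 1017 bases further 5′ and holds AATAAA. The last, at chr13:120142585-120142644, starts another 18250 bases further 5′ and comes from a cDNA clone of pancreatic islets according to the annotation in the files. The starts of the first and the last of the 3 probes lie 19267 bases apart. A match to AATAAA in a probe is a description of its letters and does not show where the transcripts of either strain end. The sequences of both strains under the probes were not compared.

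Nnt was higher in NZO liver at both of the more 3′ probes, called its 3′ probes here. How far they lie from the end of the transcript was not determined. At A_55_P2144285 the NZO arrays had levels of 4.50, 4.96, 4.98 and 4.85 (replicates 7, 3, 9 and 11) and the B6 arrays 3.20, 3.44, 3.01 and 3.36 (replicates 11, 10, 15 and 9). The lowest NZO array, replicate 7, thus stood well above the highest B6 array, replicate 10, and the strains did not overlap. Mean levels were 4.82 ± 0.23 (SD, n = 4) for the NZO arrays and 3.25 ± 0.19 (SD, n = 4) for those of B6. The log2 fold change was 1.57 (SE 0.15), a 2.97-fold higher signal in NZO with a 95% confidence interval from 2.35 to 3.75 (limma, adjusted p = 0.000237). This probe thus detected Nnt in B6 liver too, with processed signals between 1098 and 1600, against 2809 to 4485 in NZO.

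The most 3′ probe, A_55_P2144280, was dim. Its levels were -2.55, -2.42, -2.39 and -2.69 on the NZO arrays, all of them detected, and -4.66, -5.10, -5.39 and -6.38 on the B6 arrays, none of them detected. The NZO arrays lay close together, while the B6 arrays spread widely at the background. Because B6 has only an upper bound here, the ratio is given as a bound as well: NZO was at least 3.96-fold higher, with each B6 array taken at its own level or, where higher, at the lowest level of any detected probe on that array. The probe was tested only because it was detected on the NZO arrays, and limma's adjusted p of 0.000672 is that of the measured values, not of the bound. The log2 fold change as measured was 2.87 (SE 0.33), but it was 0.55 with normexp background correction, under the fold limit, and 0.78 in the deposited table without background subtraction. The size of the difference at this probe thus depends on how the background is treated, while its sign was kept under each of the 18 alternatives in which the probe was tested.

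The probe furthest 5′, A_55_P2008956, was dim as well but detected on all 8 arrays. Its levels were -3.66, -3.49, -2.84 and -3.09 in NZO and -3.10, -3.98, -3.00 and -3.62 in B6. The strains overlapped, with B6 replicate 15 above 3 of the NZO arrays. The log2 fold change of 0.16 (SE 0.26, 95% confidence interval from -0.45 to 0.76, limma, adjusted p = 0.741) did not pass the test. The interval ends far below the difference of 1.57 at A_55_P2144285 but leaves room for differences up to 0.76. It holds for the measured values of a dim probe, whose low signal limits what they show.

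**Figure D1:**
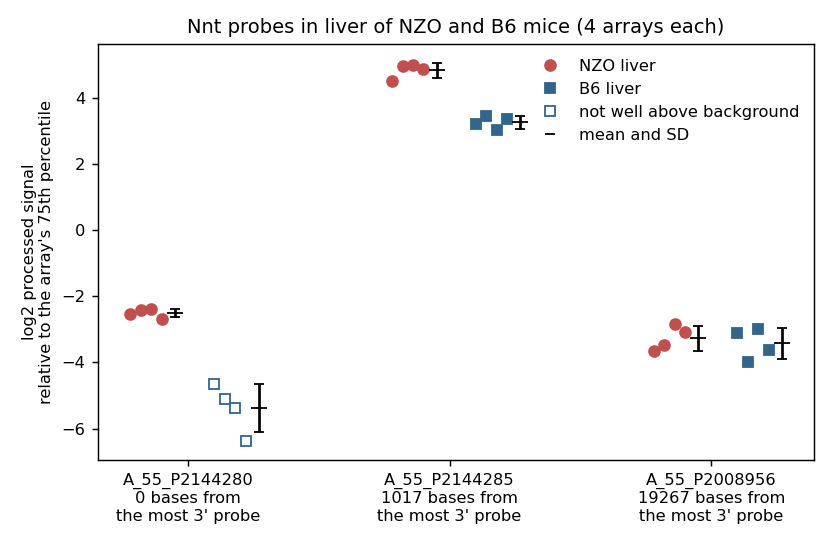
Levels of the 3 Nnt probes (log2 processed signal relative to the 75th percentile of the array) on the 4 NZO and 4 B6 arrays, ordered from the most 3′ probe, with mean and SD. Both of the more 3′ probes separate the strains, the B6 arrays of the first are not well above background, and the strains overlap at the probe 19267 bases away.

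The probes of Nnt were also compared with each other, array by array. In all, 6 pairs of probes of the same gene were tested among the redox genes, and with 4 arrays per strain an exact two-sided permutation test cannot give less than 0.0286. All 3 pairs of Nnt probes reached this smallest value (adjusted p = 0.0571 over the 6 pairs), but in both pairs with A_55_P2144280 the B6 values lie at the background, so the size of the difference there is not fixed by these arrays. In limma across 9816 pairs of probes of one gene on the array, an alternative added after the data had been seen, the strain difference at A_55_P2008956 differed from that at A_55_P2144285 (by 1.41 on the log2 scale, SE 0.32, adjusted p = 0.0345). A_55_P2008956 was itself dim, with processed signals from 8.89 to 19.8, and this low signal limits what the pair shows about the gene. For the pair of 3′ probes the order of the differences turned with the background correction, with A_55_P2144280 having the smaller difference by 0.93 under normexp and by 0.56 in the deposited table. The pairs of probes for Glud1, Txn2 and Prdx5 differed by 0.06, 0.20 and -0.04 (exact permutation, adjusted p = 0.257, 0.171 and 0.171 over the 6 pairs). Thus none of the 6 pairs passed the permutation test after adjustment. With only 3 pairs at the smallest possible p, those of Nnt could not pass whatever their size, so this test decides nothing about them. In limma over all pairs, those of Glud1, Txn2 and Prdx5 did not pass, and neither did the pair of both 3′ Nnt probes (1.30, SE 0.37, adjusted p = 0.0851).

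The arrays were on 5 slides and scanned on 2 days, and a single slide held both strains, with NZO replicate 3 beside B6 replicates 10 and 15. Within that slide the difference at A_55_P2144285 was 1.74, and it was 1.71 on the first scan day and 1.22 on the second. At A_55_P2144280, with the B6 arrays at their floor as above, NZO was at least 3.89-fold higher within the slide, and at least 3.68-fold and 4.19-fold within the days. The higher NZO signal at both 3′ Nnt probes was thus present in each batch that held both strains. At A_55_P2008956 the difference was 0.00 within the slide, 0.35 on the first scan day and -0.30 on the second. That slide and the second scan day each held only 1 NZO array.

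Among the 15 tested probes of the redox genes, 2 were changed and higher in NZO, both of them Nnt, and 0 were changed and lower. Of all 27643 tested probes, 4.34% were changed and higher and 5.28% changed and lower. With the adjusted p alone, without a fold limit, 2 redox probes were higher and 1 was lower, beside 6.78% and 7.44% of all probes. One of the Nnt probes counted here, A_55_P2144280, passed the filter through its NZO arrays alone, and among probes detected on all 8 arrays 1 of 14 redox probes was higher and 0 lower, beside 3.92% and 3.94% of 24460 probes. The strains did not overlap at 3 redox probes that were higher in NZO and 2 that were lower, beside 11.3% and 10.7% of all probes. The median log2 fold change was 0.12 for the redox probes and 0.01 for all probes. Without Nnt, the median size of the difference over the other 12 tested probes was 0.19, against 0.24 over all tested probes, and the largest was 0.58. Of all tested probes, 3.71% had a difference at least as far from 0 as Nnt A_55_P2144285.

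**Figure D2:**
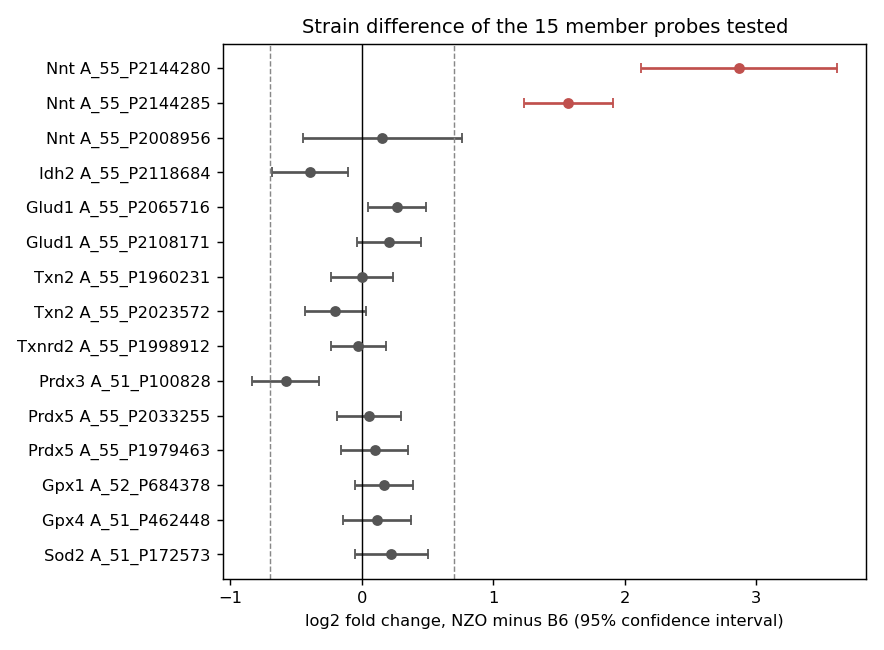
Log2 fold change (NZO minus B6) with its 95% confidence interval for the 15 tested probes of the redox genes, with changed probes in red and dashed lines at the fold limit of 0.7. The Nnt probes at 2.87 (with B6 at the background) and 1.57 lie beyond the limit, and the other 13 have point estimates between -0.58 and 0.27.

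Idh2 and Glud1, the other sources of matrix NADPH among these genes, were not changed. Idh2, the NADP-dependent isocitrate dehydrogenase of mitochondria, had levels of 4.85, 5.06, 4.81 and 5.13 in NZO and 5.38, 5.27, 5.20 and 5.59 in B6. All NZO arrays were below all B6 arrays, by a narrow margin between NZO replicate 11 and B6 replicate 15. The log2 fold change of -0.39 (SE 0.13, limma, adjusted p = 0.0777) missed both limits. The p limit was passed with normexp (-0.48, adjusted p = 0.0189), quantile normalization (-0.50, adjusted p = 0.0271) and the deposited table (-0.66, adjusted p = 0.0101), always under the fold limit, whereas the difference was -0.17 within the slide with both strains, -0.23 within the first scan day and -0.64 within the second. Glud1, which links glutamate to the citrate cycle, was read by 2 probes. Their log2 fold changes were 0.27 (SE 0.10, adjusted p = 0.107) and 0.21 (SE 0.11, adjusted p = 0.249). At the first of them the NZO arrays, from 7.40 to 7.64, were all above the B6 arrays, from 7.18 to 7.37, and at the second NZO replicate 7 fell among the B6 arrays.

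In the thioredoxin branch, Prdx3 came closest to a change. This peroxiredoxin of the matrix removes much of the hydrogen peroxide formed there, and its probe A_51_P100828 was printed 10 times on each array, so that a level is the mean of up to 10 spots. The NZO arrays had levels of 2.74, 3.02, 2.81 and 2.94 and the B6 arrays 3.63, 3.38, 3.32 and 3.50. Every NZO array was below every B6 array. Prdx3 was 1.49-fold higher in B6 (log2 fold change -0.58, SE 0.11, limma, adjusted p = 0.00951), which passed the p limit but not the fold limit of 0.7. In the deposited table, where the median of all probes was shifted to -0.15, the log2 fold change was -0.77, and there the probe counted as changed. Within the slide with both strains, which held 1 NZO array, the difference was only -0.33. Within the first scan day it was -0.42 and within the second -0.82.

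The other genes of this branch gave small differences. Txnrd2, the reductase that starts the chain, had a mean level of 4.64 ± 0.06 (SD, n = 4) on NZO and 4.67 ± 0.10 (SD, n = 4) on B6 arrays. The log2 fold change was -0.03 with a 95% confidence interval from -0.23 to 0.18. The most 3′ probe of Txn2, A_55_P1960231, which holds AATAAA, had a log2 fold change of 0.00 (SE 0.10), and the tested probe furthest 5′ one of -0.20 (SE 0.10, adjusted p = 0.253). The middle probe of Txn2 was detected on 2 NZO and 3 B6 arrays and was not tested, with levels from -4.04 to -3.34 in NZO and from -3.94 to -3.68 in B6. Both probes of Prdx5, a peroxiredoxin found in mitochondria and peroxisomes, had overlapping strains and log2 fold changes of 0.06 and 0.10. Among the tested probes other than Nnt, the widest 95% confidence interval, that of Idh2, reached 0.29 to either side of the estimate.

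The glutathione peroxidases and Sod2 were likewise not changed. Gpx1, a selenoprotein abundant in liver, had levels from 9.87 to 10.08 in NZO and from 9.66 to 9.87 in B6, which overlapped by less than 0.01 (9.8657 for the lowest NZO and 9.8662 for the highest B6 array), with a log2 fold change of 0.17 (SE 0.10, adjusted p = 0.286). Gpx4, which reduces lipid peroxides in membranes, had a log2 fold change of 0.12 (SE 0.11, adjusted p = 0.543). Sod2 had levels of 7.31, 7.61, 7.26 and 7.54 in NZO and 7.38, 7.05, 7.21 and 7.19 in B6, and the highest B6 array was above 2 NZO arrays (log2 fold change 0.22, SE 0.12, adjusted p = 0.271).

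**Figure D3:**
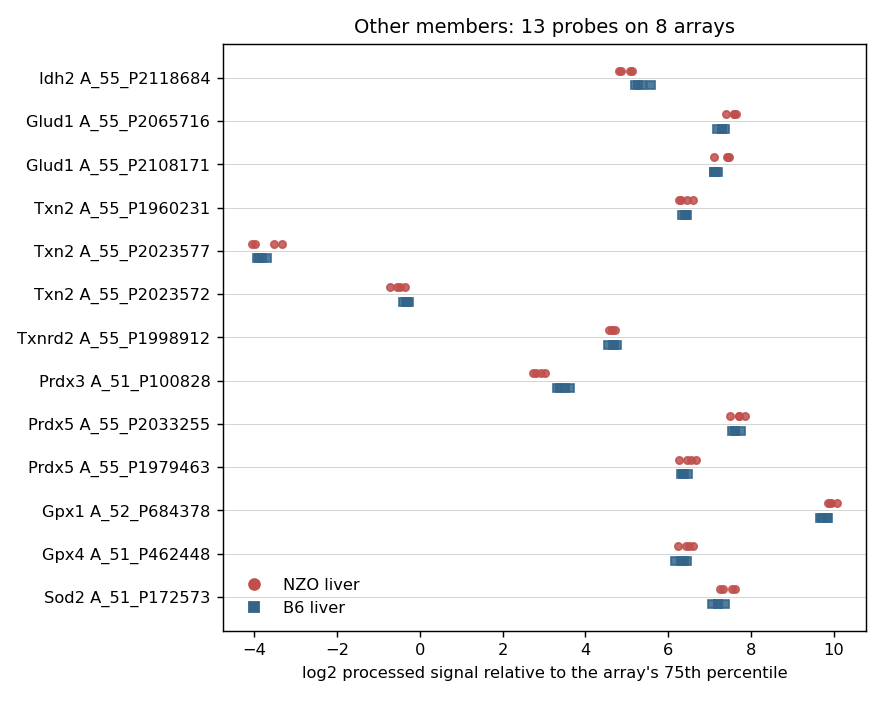
Levels of the 13 probes of the other redox genes (log2 processed signal relative to the 75th percentile of the array) on each of the 8 arrays, with NZO as circles and B6 as squares. Idh2 and Prdx3 show all NZO arrays below all B6 arrays and the first Glud1 probe shows the opposite, while the strains overlap at the other 10 probes.

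Some arrays stood at one end of their strain at many of these probes. NZO replicate 3 had the highest NZO level at 9 of the 15 tested redox probes, against 35.5% of all tested probes, and the lowest at 1. NZO replicate 9 was the lowest at 8 probes, against 23.8% of all, but the highest at 4. In B6, replicate 11 was highest at 8 probes (31.5% of all) and lowest at 0, and replicate 10 lowest at 8 (29.8%) and highest at 3. Over the 8 arrays, which fall into the strains and share the scaling of each array, the level of Sod2 correlated with those of Gpx1 (Pearson r 0.87), Gpx4 (0.87) and the Prdx5 probe A_55_P1979463 (0.89), whereas Nnt A_55_P2144285 correlated with the first Glud1 probe (0.95) and inversely with Prdx3 (-0.87) and Idh2 (-0.74). These values are descriptions, and those with Nnt also contain the strain difference.

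Among 16703 probes of named genes detected on all 8 arrays, the probes most like Nnt A_55_P2144285 over the 8 arrays were those of Trappc12 (Pearson r 0.998), Ganc (0.996) and Trim44 (0.996). They lie on chromosomes 12 and 2, and their log2 fold changes were 0.71, 1.01 and 0.82. Because they were picked over arrays of both strains, a strain difference of the same sign follows from the choice. Their calls were lost in 9, 2 and 3 of 19 alternatives, and Trappc12 was at 0.46 in the deposited table.

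The wider machinery around NNT was read from 7 lists of genes, which together had 111 tested probes for genes other than the members. Of these, 4 (3.6%) were changed and higher in NZO and 2 (1.8%) changed and lower, beside 4.34% and 5.28% of all probes. Without NZO replicate 7, 7 (6.31%) were higher and 2 lower, beside 4.43% of all probes higher. In the list of other mitochondrial sources of NADPH, 1 of 5 tested probes was higher and the median log2 fold change was 0.41. This was Mthfd2, a folate enzyme of the matrix, with levels of -1.06, -1.10, -1.42 and -1.47 in NZO and -2.39, -2.20, -2.96 and -2.80 in B6. All NZO arrays lay above all B6 arrays (log2 fold change 1.33, SE 0.19, adjusted p = 0.00234), and with normexp and in the deposited table its log2 fold change was 0.54 and 0.63, under the fold limit. No probe of Me3 or Aldh1l2 was detected widely enough to be tested.

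In the cytosolic NADPH list 1 of 9 probes was higher, with a median of 0.14. It was one of 3 probes for malic enzyme (Me1), which forms NADPH for lipid synthesis. At this probe the NZO arrays had levels of 3.90, 4.55, 3.87 and 4.75 and the B6 arrays 3.11, 3.22, 3.47 and 3.23 (log2 fold change 1.01, SE 0.22, adjusted p = 0.0159). The other Me1 probes gave 0.65 and 0.42 and did not pass, and the changed probe differed from the latter (by 0.59, SE 0.13, limma over all pairs, adjusted p = 0.0314). The changed probe lost its call (adjusted p = 0.104) when the test that the methods name was adjusted over all probes, and kept it in limma at their p limit without adjustment.

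The list of other antioxidant enzymes had 35 tested probes, of which 2 were higher and 2 lower, with a median of 0.22. Glrx, a glutaredoxin of the cytosol, had levels of 3.71, 4.41, 3.97 and 4.36 in NZO and 2.11, 2.28, 2.33 and 2.26 in B6, with no overlap (log2 fold change 1.87, SE 0.17, adjusted p = 0.000171). Glrx2, the glutaredoxin with a mitochondrial form, was lower at one probe, with 1.15, 1.35, 1.14 and 1.21 in NZO against 2.32, 1.97, 2.20 and 2.12 in B6 (log2 fold change -0.94, SE 0.11, adjusted p = 0.00069), but its other tested probe gave 0.18 and both probes differed in their strain difference (by -1.12, SE 0.15, adjusted p = 0.00282). Prdx1, a cytosolic peroxiredoxin, was read by probes that disagreed in the same way. One was higher by 1.39 (SE 0.10, adjusted p = 4.92e-05), with all NZO arrays from 4.59 to 4.87 above all B6 arrays from 3.25 to 3.39, and the other had a log2 fold change of 0.24 (adjusted p = 0.155). Msrb3, a methionine sulfoxide reductase, was lower (log2 fold change -0.82, SE 0.12, adjusted p = 0.00244), with a log2 fold change of -0.24 under normexp and -0.61 in the deposited table, both under the fold limit. Under a fixed slide term, which leaves the comparison to the 3 arrays of one slide, 2 probes of the wider lists were higher and 0 lower.

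The remaining lists held no changed probe. Their median log2 fold changes were 0.00 over 11 probes for the synthesis of selenoproteins, 0.05 over 20 probes for the citrate cycle and glutamate enzymes, 0.12 over 20 probes for mitochondrial content and 0.03 over 11 probes for regulators and uncoupling.

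**Figure D4:**
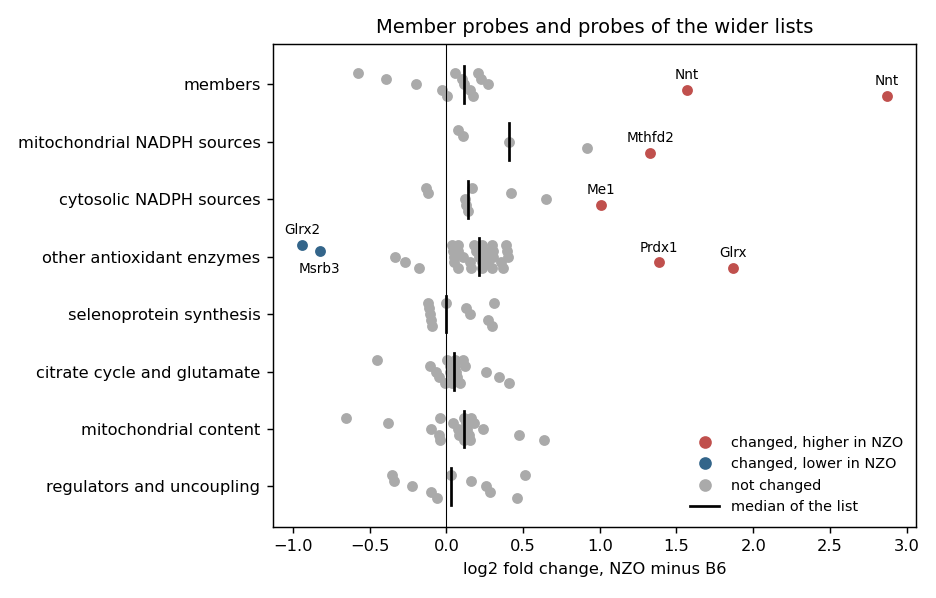
Log2 fold change (NZO minus B6) of each tested probe of the redox genes and of the 7 wider lists, with a line at the median of each list. Changed probes are coloured and named, and 4 lists have none.

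Of the 4 probes for red blood cell markers, 2 were changed and higher in NZO, Alas2 (log2 fold change 0.90, SE 0.13, adjusted p = 0.0023) and Hba-a1 (1.00, SE 0.22, adjusted p = 0.0183), while Hbb-b1 (0.81, adjusted p = 0.0704) and Slc4a1 (0.61, adjusted p = 0.322) did not pass. The summed linear level of the 4 probes, dominated by Hba-a1, was 366, 318, 469.5 and 293 times the 75th percentile in NZO and 208, 165, 155 and 197 times in B6. Red blood cells are rich in peroxiredoxins and Gpx1, and the part of these cells in the values above was not tested. Of the adipocyte markers, Adipoq, Lep and Plin1 were not detected on any array. The sum over all 7 adipocyte probes, carried by Car3, was 565 to 644 in NZO and 409 to 481 in B6, and no probe of that list was changed. Car3, with mean levels of 9.21 in NZO and 8.74 in B6, was about as bright as the hepatocyte marker Apoa1 (8.88 and 8.87). The sum is thus not read as a level of adipocytes. The log2 fold change was 0.47 for Car3 (limma, adjusted p = 0.0133), where the strains did not overlap but the fold limit was missed. It was 0.42 and 0.29 for Cidec, but -0.30 for Fabp4. Of 6 pancreas probes, 4 were not detected on any array, and the sums were 1.36 to 2.30 in NZO and 1.29 to 1.76 in B6. Of 6 leukocyte probes, 1 was changed, Itgax, which was lower in NZO (log2 fold change as measured -2.04, SE 0.53, adjusted p = 0.0358) but detected on only 2 of the 4 NZO arrays, so that it was tested through its B6 arrays. The leukocyte sums ran from 11.1 to 19.0 in NZO and from 11.1 to 13.6 in B6, led by Cd3e. The log2 fold change was -0.42 (limma, adjusted p = 0.0445) and -0.25 at the Cd68 probes and -0.52 for Ptprc. It was 0.41 for Lyz2 and 0.33 for Cd3e, and none of these was changed. The call for Hba-a1 was lost in 8 of 19 alternatives, among them quantile normalization (adjusted p = 0.053), the deposited table (adjusted p = 0.0578) and leaving out B6 replicate 10 or 15 (adjusted p = 0.0566 and 0.0552), and that for Alas2 in 3 of 19. The call for Itgax was lost in 13 of 18 alternatives, with a log2 fold change of -0.37 under normexp, and also when leaving out any one of NZO replicates 3, 9 and 11 or any one B6 array (adjusted p from 0.0501 to 0.0964). Skeletal muscle markers, led by Myh4, stood out in NZO replicate 7, with a sum of 18.8 against 0.21 to 0.40 in the other NZO arrays, and in B6 replicate 10 with 6.18 against 0.43 to 1.59. Without NZO replicate 7 the log2 fold change of Nnt at A_55_P2144285 was 1.68, and without B6 replicate 10 it was 1.63. In bulk tissue, fewer cells of a type and less RNA per cell cannot be told apart.

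The higher signal of Nnt was set beside that of its neighbours on the chromosome. Within 1000000 bases of the Nnt probes lay 17 probes for 14 other gene names, of which 9 were tested, and 0 were higher and 5 lower in NZO, beside 4.34% higher and 5.28% lower of all tested probes. On the side toward the 3′ end of Nnt, the only tested probe was that of the ribosomal protein gene Mrps30, with a log2 fold change of 0.06. On the other side, the 2 probes of Paip1, a partner of the poly(A)-binding protein and the nearest tested gene, gave 0.02 and -0.18. Further out, from 112407 to 141609 bases beyond the last Nnt probe, all 5 tested probes were lower. They belong to 4833420G17Rik (log2 fold changes -1.55, SE 0.14, and -1.74, SE 0.16), 3110070M22Rik (-1.10, SE 0.17) and Gm7120, whose RefSeq symbol is Tmem267. For 4833420G17Rik at probe A_52_P613498 the NZO arrays had levels of 1.18, 1.51, 1.78 and 1.80 and the B6 arrays 3.27, 3.50, 3.17 and 3.29, and at the 4 probes detected on all 8 arrays the strains did not overlap (adjusted p from 0.000169 to 0.00347). The fifth, a Gm7120 probe, was not detected in NZO, was tested through its B6 arrays alone and was at least 3.06-fold higher in B6, and the other Gm7120 probe had a log2 fold change of -2.06 (SE 0.20). Under normexp 3110070M22Rik and both Gm7120 probes fell under the fold limit, at -0.27, -0.33 and -0.59. The probes of Gm7120 that carry no position in the files gave 0.81 and -0.33, so the direction differed among the probes of this gene. The former was past the size of the fold limit in the other direction. It differed from the probe at -2.06 by 2.87 (SE 0.11, limma over all pairs, adjusted p = 8.84e-06). Having no position, neither is in the counts of neighbours above.

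**Figure D5:**
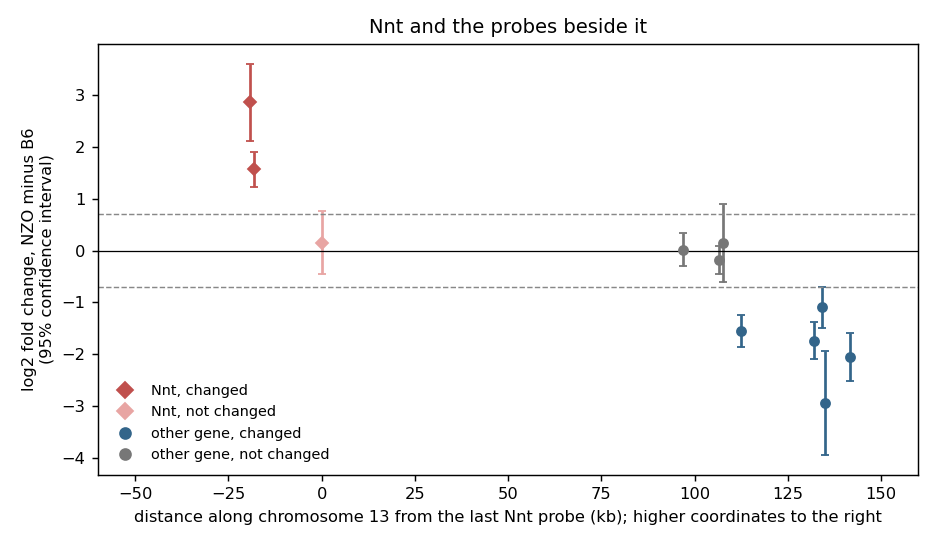
Log2 fold change (NZO minus B6) with its 95% confidence interval for the Nnt probes (diamonds) and the tested probes of other genes (circles) against the distance from the Nnt probe furthest 5′, in kb along chromosome 13. Nnt is higher at the left, the probes around Paip1 lie near 0, and the 5 probes further out lie between -1.10 and -2.94 as measured (the latter with NZO at the background), while the probe of Mrps30 lies outside the range drawn.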

How the data were processed

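Liver RNA of 4 NZO and 4 B6 mice was measured on 1-colour Agilent arrays. For each array the authors deposited a scanner file, whose intensity values Agilent Feature Extraction made (version 11.0.1.1 in the file headers, 9.1 in the submitters' processing notes), and a table for all arrays whose values equalled the raw median intensity for 59305 of 59305 spots on every array (tolerance 0.01). The paper's methods name a t-test with Welch correction and a log2 fold change limit of 0.7, and no normalization is given in the sources used here. The processed signal, which Feature Extraction has corrected for background but not scaled between arrays, was taken as log2 without outlier spots (96 to 137 per array), centred by subtraction of the 75th percentile of its array, and averaged over the spots of each probe. That percentile was 119 to 142 in NZO and 136 to 159 in B6, and 50.4% to 55.0% of the spots in NZO and 53.1% to 60.1% in B6 were well above background. With 4 arrays per strain, the number of arrays limits the precision.

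Strains were compared with limma 3.58.1 in R 4.3.3 over all tested probes, with Benjamini-Hochberg adjustment. The genes, lists and tests were chosen with earlier results of these data known. The probes named were all those of the redox genes, the changed probes of each list and of the genes within 1000000 bases of Nnt, and the 3 genes whose level followed Nnt best. Further probes of these genes, the unchanged marker genes and the unchanged neighbours Mrps30 and Paip1 are given beside them and were chosen after their values were seen. Samples were grouped by their titles, whose numbers are taken as those of mice, and p-values measure only the spread between these samples. Alternatives were normexp background correction (offset 50), quantile normalization, the deposited table, other filters on dim probes, slide, scan day or sample number as terms, the test with Welch correction, the unadjusted p, the brightest probe per gene and leaving out each array. Gene symbols of the files were kept, and 11 of the 17 probes beside Nnt matched RefSeq's table of GRCm38, which was used for names only.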

Additional observations from a re-analysis of the deposited data

Results flagged for a closer look

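In 66 groups of 4 arrays, formed by the 33 probes of the redox genes, the changed list and marker probes, the changed neighbours and the genes that followed Nnt, within each strain, the highest or lowest array was set against the spread of the others, and 2 groups stood out. NZO replicate 7 had a level of 7.10 at the Glud1 probe A_55_P2108171, below the other NZO arrays at 7.41 to 7.46. B6 replicate 15 had a level of -1.18 at the Itgax probe A_51_P303424, above the other B6 arrays at -1.94 to -1.92. Chance alone gives about 1 such array in 20 groups.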

How the results depend on the processing

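At Nnt A_55_P2144285 the log2 fold change lay between 1.34 and 1.74 over 19 alternatives and stayed past both limits in 18 of them, and leaving out each array in turn gave 1.49 to 1.68. At A_55_P2144280 it stayed past the limits in 16 of 18. This probe was tested through its NZO arrays alone, with B6 at the background, so that count does not show a stable difference. The labels number the samples, and the numbers 9 and 11 occur in both strains. The deviations of samples with the same number from their strain means correlated at -0.29 and -0.03, which shows no pairing. With only 2 shared numbers, this cannot settle whether these samples share more than the number. The number as a replicate block leaves the comparison of the strains to the samples numbered 9 and 11. It left 0 redox probes, 72 probes in all and 0 probes of the wider lists higher. Lower were 134 in all and 0 of the wider lists. The log2 fold change was 1.63 (adjusted p = 0.0587) at Nnt A_55_P2144285 and 2.98 (adjusted p = 0.129) at A_55_P2144280. With so few samples compared, the calls lost here do not decide whether the differences over all arrays are stable.

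Normexp left 1 redox probe higher and 616 higher and 583 lower probes in all, with 1 lower probe in the wider lists and a log2 fold change of 0.55 at A_55_P2144280. The deposited table, whose median over all probes was -0.15 instead of 0.01, gave 576 higher probes, 1 lower redox probe (Prdx3, -0.77) and 1 lower probe in the wider lists. With probes detected on all 8 arrays alone, A_55_P2144280 was not tested, 1 redox probe was higher and 964 probes were lower. The slide as a fixed term gave 497 higher probes, and 2 higher and 0 lower probes in the wider lists. The methods' t-test with Welch correction gave 831 higher and 890 lower probes after adjustment, and 1 probe per gene left 1 redox probe. Leaving out each array gave 1072 to 1239 higher and 1227 to 1461 lower probes, 2 higher redox probes each time and 4 to 7 higher probes in the wider lists. In limma over all pairs, the same differences from A_55_P2008956, 1.41 at A_55_P2144285 and 2.71 at A_55_P2144280, passed (adjusted p = 0.0345 and 0.00394). Both rest on the low signal of A_55_P2008956. The latter also rests on B6 values at the background and was 0.40 with normexp and 0.84 in the deposited table. The difference between both 3′ Nnt probes did not pass in limma over all pairs (1.30, adjusted p = 0.0851) and turned to -0.93 with normexp and -0.56 in the deposited table.

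In the wider lists, Glrx and Prdx1 lost their call in 1 of 19 alternatives, Glrx2 in 2, Me1 in 3 and Mthfd2 and Msrb3 in 4, each with the sign kept. The sign of small differences that passed no test also turned. With normexp, Txn2 A_55_P1960231 was at -0.0229 and Prdx5 A_55_P2033255 at -0.0078. With quantile normalization, Txn2 was at -0.12, the Prdx5 probes at -0.0543 and -0.029 and Gpx4 at -0.0064. In the deposited table, Nnt A_55_P2008956 was at -0.0591, Glud1 A_55_P2108171 at -0.0199, Txn2 at -0.19, the Prdx5 probes at -0.18 and -0.12, Gpx1 at -0.0448 and Gpx4 at -0.11. With the slide as a fixed term Txnrd2 was at 0.11, with the scan day Txn2 at -0.0013, and with the sample number Txn2 at -0.0755 and the Prdx5 probes at -0.0884 and -0.0145. Leaving out each array gave -0.062 to 0.0547 for Txn2, -0.068 to 0.0087 for Txnrd2 and -0.0267 to 0.30 for Nnt A_55_P2008956. The cause of these changes was not tested. For dim probes, the low signal above background limits the precision.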
